A study of Mus musculus with 19 samples.

Results

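The miR-200 family was followed across 19 small RNA libraries from the hippocampal CA1 subregion of mice. Its rows were found by their names, as both arms of mmu-miR-141, miR-200a, miR-200b, miR-200c and miR-429, which gave 10 of the 1148 mature miRNA rows that every library lists. Of these 10 rows, 8 had at least 1 count in any library, and 5 passed the low-count filter and were tested (miR-429-3p, miR-200b-3p, miR-200a-3p, miR-141-3p and miR-200a-5p). The miR-200b-5p, miR-200c-3p and miR-141-5p rows had counts but were too low to test, and miR-200c-5p and miR-429-5p were at 0 in all 19 libraries.

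The labels name C57B/6JRj as the strain and wild type as the genotype of every animal. Young vehicle (8 libraries) came from animals of 3 months that drank vehicle, 18 g of cyclodextrin per L of water, and aged vehicle (5 libraries) from animals of 20 months on the same drink. Aged SAHA (6 libraries) came from animals of 20 months whose vehicle also held 0.67 g per L of SAHA, an inhibitor of histone deacetylases also known as vorinostat. The aged animals were treated for 4 weeks; the sources used here do not give the length for the young animals, the sex of any animal or whether each library came from 1 animal. P-values therefore measure the spread between these libraries.

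A miRNA is cut from a hairpin precursor as a short duplex, and either arm (5p or 3p) may be loaded into an Argonaute protein, where its seed, bases 2 to 8 from the 5′ end, pairs with target mRNAs. The miR-200 family is known as a marker of epithelial cells, in which it holds down the transcription factors Zeb1 and Zeb2 and with them the shift from an epithelial to a mesenchymal state. In the nervous system it is best known from olfactory tissue.

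The mature sequences below are from RefSeq (GRCm38.p6), which held all 10 members. They are shown because the 3p arms fall into 2 seed groups and the closest pairs differ at only 2 bases, which bears on how reads could be assigned. Capitals mark the seed.
miR-429-3p: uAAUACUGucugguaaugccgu
miR-200b-3p: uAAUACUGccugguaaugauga
miR-200c-3p: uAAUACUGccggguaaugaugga
miR-200a-3p: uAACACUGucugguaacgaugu
miR-141-3p: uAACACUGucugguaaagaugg
miR-200a-5p: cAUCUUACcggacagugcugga
miR-200b-5p: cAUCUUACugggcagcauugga

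The seed AAUACUG is shared by miR-429-3p, miR-200b-3p and miR-200c-3p, and the seed AACACUG by miR-200a-3p and miR-141-3p. Both seeds differ at 1 base, C4U from the miR-200a-3p to the miR-200b-3p sequence, counted from 1 at the 5′ end. No other mature miRNA in the RefSeq table carries either seed. The closest pairs cut across the seed groups' genomic origin: miR-141-3p and miR-200a-3p differ at 2 of 22 positions (A17C and G22U from the first to the second), and miR-200b-3p and miR-200c-3p at 2 of 22 (U11G and A22G), the latter being 1 base longer. The other pairs of 3p arms differ at 4 or 5 positions. Reads with sequencing errors or trimmed 3′ ends could be split between such close copies, so the low counts of miR-141-3p and miR-200c-3p carry that uncertainty.

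In the mouse genome (GRCm38, mm10) the family is encoded at 2 loci, both read from the minus strand. Mir200b, Mir200a and Mir429 lie within 1846 bases on chromosome 4 (chr4:156053905-156055750), in an intron of Ttll10 by the GENCODE M21 annotation. Mir429 (chr4:156053905-156053987) also overlaps an exon of the noncoding transcript Gm13648, while Mir200a (chr4:156054896-156054985) and Mir200b (chr4:156055681-156055750) overlap no exon of another gene. Mir200c (chr6:124718322-124718390) and Mir141 (chr6:124717914-124717985) lie within 477 bases on chromosome 6, inside the antisense gene Gm15884, with Phb2 and Ptpn6 as the nearest coding genes. Mir141 also overlaps an exon of the unclassified gene Gm29008.

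The libraries held between 3585489 and 6808281 reads assigned to miRNAs, and levels are given as CPM, the counts scaled to a common library size after TMM scaling. The neuron-enriched marker list fitted brain tissue, with all 22 rows tested and miR-9-5p at 33682 CPM or more in every library; no list separated CA1 from other hippocampal fields. Mean correlation with the other libraries of the same group was 0.989 for aged SAHA 1 and 0.992 to 0.995 for the remaining 18. A summed vascular list (miR-126, miR-143, miR-145, miR-199 and miR-214) was above 50000 CPM in 4 libraries, young vehicle 4, aged vehicle 2 and aged SAHA 1 and 3, and at most 39118 CPM elsewhere. This sum mainly follows miR-143-3p, which averaged 26076 CPM and ranged from 16243 to 53775 CPM. The next rows, miR-126-5p and miR-126-3p, were at most 10659 and 1551 CPM in any library. The family's differences are therefore also given without these 4 libraries, which were picked from the vascular list with its values in view. Aged SAHA 1 and 3 were also the SAHA libraries highest in miR-429-3p, miR-200b-3p and miR-200a-3p. Lower SAHA levels of these miRNAs without the 4 libraries therefore follow from the choice.

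The family as a whole was a small part of CA1 miRNA. All 10 rows together made up 0.0318% ± 0.00411 of miRNA counts in young vehicle (SD, n = 8), 0.0248% ± 0.00204 in aged vehicle (SD, n = 5) and 0.0221% ± 0.00515 in aged SAHA (SD, n = 6). The chromosome 4 locus supplied nearly all of it, between 97.2% and 99.5% of family counts per library. Its products summed to 167 to 386 CPM per library, against 1.51 to 5.79 CPM for the chromosome 6 locus. Among all 1148 rows ranked by mean CPM, miR-429-3p was number 177, miR-200b-3p 229, miR-200a-3p 254, miR-141-3p 463 and miR-200a-5p 502.

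The order miR-429-3p, miR-200b-3p, miR-200a-3p held in each of the 19 libraries, with lowest ratios of 1.60 for the first to the second and 1.09 for the second to the third. One read covers a whole mature miRNA, so these levels need no scaling by length, but ligation and amplification favour some sequences over others and the order in reads need not be the order in molecules. Levels of miR-141-3p (3.04 ± 0.982 CPM, SD, n = 19) and miR-200a-5p (1.75 ± 0.526) overlapped between libraries.

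miR-429-3p was the most abundant member and had the largest differences between group means in CPM. In the young vehicle libraries it lay between 144.6 and 219.6 CPM with a median of 183.8. The 5 aged vehicle libraries had 129.5, 131.4, 146.0, 128.2 and 154.5 CPM, and the 6 aged SAHA libraries 81.0 to 156.4 CPM with a median of 92.5. Aged vehicle lay at the lower edge of the young range, with 3 of 5 libraries below every young one. Of the SAHA libraries, 4 were below every vehicle library of either age, and aged SAHA 1 and 3, at 156.4 and 131.7 CPM, were not. Group means were 184.9 ± 21.4 CPM in young vehicle (SD, n = 8), 137.9 ± 11.7 in aged vehicle (n = 5) and 106.6 ± 30.5 in aged SAHA (n = 6).

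miR-200b-3p, its neighbour with the same seed, lay between 68.6 and 103.3 CPM in young vehicle with a median of 78.8. The aged vehicle libraries had 66.7, 65.3, 56.6, 58.3 and 65.8 CPM, all of them below all 8 young libraries. In aged SAHA it ranged from 46.1 to 80.5 CPM with a median of 52.3. Here too aged SAHA 1 and 3 stood above the rest, at 80.5 and 70.9 CPM, while the other 4 SAHA libraries (46.1 to 53.5) were below every vehicle library.

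miR-200a-3p, processed from the hairpin between those of the other two but with the other seed, lay between 37.0 and 60.3 CPM in young vehicle with a median of 51.2. The aged vehicle libraries had 43.2, 36.8, 36.3, 32.8 and 51.7 CPM, and aged SAHA ranged from 38.1 to 65.1 CPM with a median of 45.1. All 3 groups overlapped, and aged SAHA 3 held the highest value of all 19 libraries.

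miR-141-3p shares that seed but comes from chromosome 6, and it rested on 8 to 33 counts per library. It lay between 1.51 and 5.79 CPM in young vehicle with a median of 3.02, and between 2.30 and 4.26 CPM in aged SAHA with a median of 3.21. The aged vehicle libraries had 2.15, 3.99, 1.87, 2.57 and 2.26 CPM, within the young range. Relative to miR-200a-3p, from which it differs at 2 positions, it amounted to 0.0658 ± 0.0203 counts per count (SD, n = 19), with similar group means of 0.0633 in young vehicle, 0.0664 in aged vehicle and 0.0688 in aged SAHA.

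The minor arm miR-200a-5p had 3 to 15 counts per library. It lay between 1.59 and 2.56 CPM in young vehicle with a median of 2.10, and between 1.08 and 1.93 CPM in aged SAHA with a median of 1.45. The aged vehicle libraries had 1.96, 2.0, 0.622, 1.07 and 2.07 CPM, so 3 of them lay inside the young range and aged vehicle 3 and 4 below it. miR-200b-5p, with the same bases 2 to 8, had at most 7 counts in a library and was present in 17 of 19.

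miR-200c-3p, made beside miR-141 from the same locus, was close to undetected. It had 24 counts over all libraries together, in 5 of 8 young vehicle, 1 of 5 aged vehicle and 3 of 6 aged SAHA libraries, with at most 5 counts in any one. A library at 0 allows up to 3 counts, which is 0.526 to 0.643 CPM in the 10 libraries at 0, so no difference between groups was detectable for it. These limits and the intervals on arm shares cover counting error only.

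**Figure D1:**
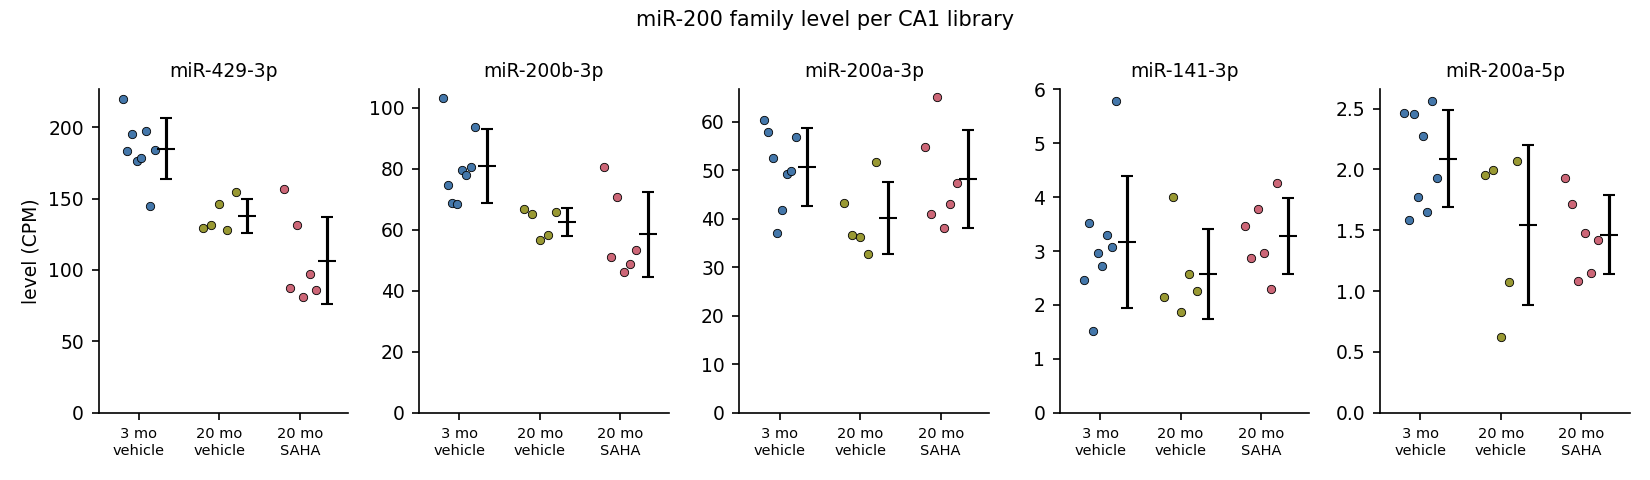
Level of the 5 tested members in CPM (vertical axis, linear from 0) for each library, by group; points are libraries and the bars beside them the mean ± SD. The 5 aged vehicle libraries of miR-200b-3p sit between 56.6 and 66.7 CPM, below all young ones, and the miR-429-3p points of aged SAHA reach down to 81.0 CPM.

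The 5p arms were minor products throughout. Over all libraries miR-200a-5p made up 3.59% of miR-200a counts (174 counts of 5p against 4678 of 3p, Wilson 95% interval 3.10% to 4.15%), and miR-200b-5p 0.796% of miR-200b counts (interval 0.612% to 1.03%). Against 14647 counts of miR-429-3p there was no count of miR-429-5p, which allows a 5p share of up to 0.0205%. The miR-141-5p row had 2 counts, 1 each in aged SAHA 1 and 2. By library the 5p share of miR-200a was 4.03% ± 0.891 in young vehicle (SD, n = 8), 3.64% ± 1.31 in aged vehicle (n = 5) and 3.05% ± 0.871 in aged SAHA (n = 6), with overlapping ranges. A test of this share had been planned for precursors with a mean of at least 10 counts in both arms, and none reached it (miR-200a-5p averaged 9.16 counts).

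The age comparison asks whether levels differed between vehicle-treated animals of 20 and 3 months. All 5 tested members had lower mean levels in the aged animals, where 50.9% of the 509 tested miRNAs had a fold change below 0. Their median was -0.37 as a log2 fold change, against -0.00296 over all tested miRNAs, and none passed an adjusted p of 0.05. The values were -0.42 ± 0.13 (SE) for miR-429-3p, -0.37 ± 0.13 for miR-200b-3p, -0.34 ± 0.14 for miR-200a-3p, -0.43 ± 0.25 for miR-200a-5p and -0.31 ± 0.26 for miR-141-3p. By the edgeR quasi-likelihood test with Benjamini-Hochberg adjustment over all tested miRNAs, the adjusted p was 0.0870 for miR-429-3p, 0.118 for miR-200b-3p, 0.224 for miR-200a-3p, 0.408 for miR-200a-5p and 0.596 for miR-141-3p. Over all tested miRNAs 2.16% were called for age. At an unadjusted p under 0.05, 3 of the 5 members passed, all lower, where 15.7% of all tested miRNAs passed in either direction and 9.04% passed lower. These 3 are the 3p arms of the chromosome 4 locus, whose levels were correlated between libraries (r of 0.62 to 0.72 with group means taken out). miR-200a-5p shares its hairpin with miR-200a-3p. The members are therefore not independent, and these counts are not a test against the shares over all miRNAs. One member, miR-200b-3p, had groups that did not overlap, as did 3.14% of tested miRNAs. In tissue, fewer cells carrying these miRNAs and less of them per cell cannot be told apart.

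For 2 members the age difference was near the threshold, and it passed in other fits. With only the 2 vehicle groups in the fit, edgeR called both miR-429-3p (adjusted p 0.00658) and miR-200b-3p (0.0417); limma-voom called the same pair (0.0161 and 0.0419), and DESeq2 called no member. Without the 4 libraries of high vascular level edgeR gave 0.0148 for miR-429-3p and 0.0198 for miR-200b-3p. That exclusion was not planned. It takes out aged SAHA 1 and 3, which are not compared for age but enter the spread that all groups share. The miR-429-3p value was -0.41 ± 0.097 (SE) there, against -0.42 ± 0.13 with all libraries. These 2 adjusted p-values are therefore no added evidence. Over all alternatives the adjusted p ranged from 0.00658 to 0.221 for miR-429-3p and from 0.0198 to 0.320 for miR-200b-3p. The difference was negative under every alternative for each of the 5 members, but for miR-141-3p it was close to 0 in some, at -0.03 with the replicate block and -0.12 without young vehicle 8, and -0.53 without the libraries of high vascular level.

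The SAHA comparison sets aged SAHA against aged vehicle. No member passed the adjusted threshold by edgeR, where 4.32% of the 509 tested miRNAs did, and 1 of 5 had an unadjusted p under 0.05, where 19.4% of all did. That one was miR-429-3p, at -0.37 ± 0.14 (SE) on the log2 scale with an adjusted p of 0.122 by edgeR. The next in level, miR-200b-3p, had a value of -0.10 ± 0.13 (adjusted p 0.727), with an approximate 95% interval of the difference from -0.36 to 0.17. Both members of the other seed group had positive values, 0.26 ± 0.15 for miR-200a-3p (adjusted p 0.356, interval -0.02 to 0.55) and 0.34 ± 0.28 for miR-141-3p (0.560, interval -0.20 to 0.88). The miR-200a-3p value was 0.045 ± 0.13 without the 4 libraries of high vascular level, 0.16 ± 0.14 without aged SAHA 3 alone and 0.13 ± 0.14 by limma-voom. miR-200a-5p was at -0.09 ± 0.28 (0.868, interval -0.65 to 0.46). Of the 5 members 3 had values below 0, where 51.3% of all tested miRNAs did, and their median was -0.09 against -0.00774 over all. No member had groups that did not overlap, where 4.91% of tested miRNAs did.

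The miR-429-3p call depended on which libraries were counted. Without aged SAHA 1 it was called, at -0.51 ± 0.12 with an adjusted p of 0.0114 by edgeR, and without the 4 libraries of high vascular level, 2 of them vehicle libraries, at -0.66 ± 0.11 with 0.000932. That exclusion was not planned and takes out aged SAHA 1 and 3, the SAHA libraries highest in miR-429-3p. A larger drop therefore follows from the choice, and its adjusted p is no added evidence. Aged SAHA 1 is the highest of the SAHA libraries in miR-429-3p, so a larger drop also follows from leaving it out alone. Without those 4 libraries miR-200b-3p had -0.31 ± 0.12 and was not called. For miR-429-3p the adjusted p by limma-voom with quality weights per library was 0.00415, and DESeq2 called no member. With only the 2 aged groups in the fit, edgeR did not call miR-429-3p (unadjusted p 0.0533, adjusted p 0.269). Without aged SAHA 3 alone it was not called (adjusted p 0.0839). Over all alternatives the adjusted p ranged from 0.000932 to 0.285, the lowest without the 4 libraries of high vascular level and the highest without aged vehicle 5. In aged SAHA 1 and 3, the libraries with the higher family levels, the vascular list summed to 60316 and 61420 CPM, against 26810 to 29222 CPM in the other 4 SAHA libraries. In young vehicle 4 and aged vehicle 2 that list was at 65734 and 53317 CPM, and miR-429-3p (176.3 and 131.4 CPM) lay inside its group's range. Aged SAHA 1 also had the highest microglial and oligodendrocyte list sums, 5990 and 8127 CPM. The neuron-enriched list summed to 75535 to 81967 CPM in aged SAHA, below the 88484 to 94104 CPM of aged vehicle and the 87378 to 97977 CPM of young vehicle. This sum mainly follows miR-9-5p and miR-128-3p, which averaged 38684 and 31834 CPM over all libraries. For SAHA miR-128-3p was called lower, while miR-124-3p, the next in level, was nearly unchanged. Of the list's 22 rows, 16 had SAHA values below 0 and 3 were called lower, so the sums do not show a drop of all its rows. The part of these cell types in the family's values was not tested.

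Aged SAHA against young vehicle combines the age and treatment differences and shares its libraries with both comparisons above, so it is no separate evidence for either. miR-429-3p fell by 0.79 ± 0.13 on the log2 scale, from 184.9 to 106.6 CPM, with an adjusted p of 0.000244 by edgeR and the fifth smallest p of 509. miR-200b-3p fell by 0.47 ± 0.12, from 80.9 to 58.5 CPM (0.0107). These were 2 of 5 tested members, where 13.9% of all tested miRNAs were called and 8.64% were called lower. Both are from the chromosome 4 locus and are not independent. In 4 of 5 members the value was below 0, as in 55% of all tested miRNAs, and none had groups that did not overlap, where 3.54% did. miR-200a-5p, at -0.52 ± 0.24, had an adjusted p of 0.131. miR-200a-3p (-0.07 ± 0.13, adjusted p 0.724, interval -0.33 to 0.18) and miR-141-3p (0.04 ± 0.24, 0.940, interval -0.43 to 0.50) did not pass. Both calls held under all 24 alternatives, with a highest adjusted p of 0.00186 for miR-429-3p and 0.0422 for miR-200b-3p. Without the 4 libraries of high vascular level the values were lower, -1.08 for miR-429-3p, -0.73 for miR-200b-3p and -0.31 for miR-200a-3p, the last with an adjusted p of 0.0749 by edgeR. miR-141-3p was then at -0.062.

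**Figure D2:**
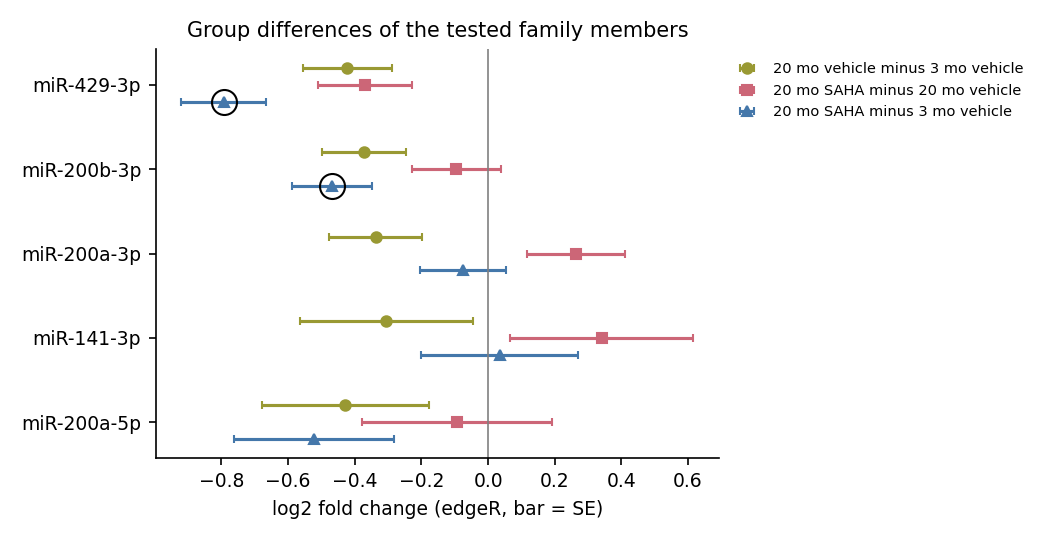
Log2 fold changes (horizontal axis) of the 5 tested members in the 3 comparisons, with bars of 1 SE from edgeR; black rings mark an adjusted p under 0.05. All 5 age values lie below 0, the SAHA values spread from -0.37 for miR-429-3p to 0.34 for miR-141-3p, and rings appear for miR-429-3p and miR-200b-3p in aged SAHA against young vehicle.

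The balance within the chromosome 4 locus set the SAHA libraries apart from the vehicle libraries. A ratio of counts within a library needs no scaling between libraries. The ratio of miR-429-3p to miR-200a-3p counts lay between 2.90 and 4.77 in young vehicle with a median of 3.68. It was 3.00, 3.58, 4.02, 3.91 and 2.99 in the aged vehicle libraries, and 1.81 to 2.85 in aged SAHA with a median of 2.13. Every SAHA library was below every vehicle library of either age, though aged SAHA 1, at 2.85, was close to the lowest young library at 2.90. The means were 3.71 ± 0.620 in young vehicle (SD, n = 8), 3.50 ± 0.490 in aged vehicle (n = 5) and 2.20 ± 0.352 in aged SAHA (n = 6). Among all pairs of tested miRNAs with a count in every library, 3.53% had a ratio that did not overlap between aged SAHA and aged vehicle, and 0.663% one that did not overlap between aged SAHA and all 13 vehicle libraries. This ratio was picked after its values were seen, so no p-value is given.

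The other ratios at the locus were also lower in aged SAHA, with overlap. miR-200b-3p to miR-200a-3p was 1.29 to 1.90 in young vehicle, 1.27 to 1.78 in aged vehicle and 1.09 to 1.47 in aged SAHA, with means of 1.62 ± 0.223, 1.59 ± 0.209 and 1.21 ± 0.138. miR-429-3p to miR-200b-3p was 1.79 to 2.84, 1.94 to 2.58 and 1.60 to 2.0 in the same order, with means of 2.31 ± 0.346, 2.22 ± 0.258 and 1.81 ± 0.150. Between the vehicle groups of 3 and 20 months all 3 ratios overlapped and their means lay within 1 SD of each other; the share of all pairs with no overlap by age was 3.11%. Aged SAHA 1 and 3, which had higher levels of all 3 miRNAs than the other SAHA libraries, had miR-429-3p to miR-200a-3p ratios of 2.85 and 2.02. Both were below the vehicle range like the rest of their group.

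Summing the 3p arms by seed restates these ratios and is no separate evidence. The seed AAUACUG made up 83.2% ± 1.94 of the family's 3p counts in young vehicle (SD, n = 8; 80.8% to 86.0%), 82.5% ± 1.72 in aged vehicle (n = 5; 80.3% to 84.2%) and 76.0% ± 2.39 in aged SAHA (n = 6; 73.1% to 80.2%). These shares were read after the ratio had been seen, with the highest SAHA value of 80.2% next to the lowest aged vehicle value of 80.3%. In levels, 3p arms with AAUACUG summed to 266 ± 28.4, 201 ± 12.5 and 165 ± 44.1 CPM in these groups, and those with AACACUG to 53.9 ± 8.42, 42.7 ± 7.27 and 51.5 ± 10.6 CPM.

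**Figure D3:**
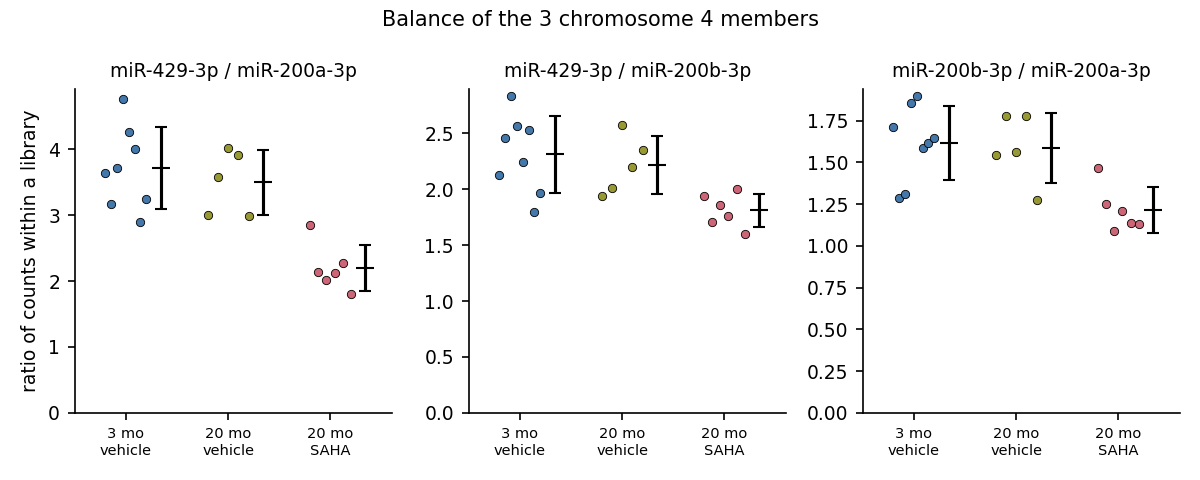
Ratios of raw counts within a library (vertical axes, linear from 0) for the 3 pairs of 3p arms from the chromosome 4 locus; points are libraries by group, with the mean ± SD beside them. The 6 SAHA libraries lie between 1.81 and 2.85 for miR-429-3p over miR-200a-3p, below all vehicle libraries.

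The 3p arms of the chromosome 4 locus were correlated from library to library. Pearson's r of log2 CPM over the 19 libraries was 0.86 for miR-429-3p with miR-200b-3p, 0.62 for miR-200b-3p with miR-200a-3p and 0.43 for miR-429-3p with miR-200a-3p. With the group means taken out these became 0.72, 0.71 and 0.62. The minor arm miR-200a-5p of the same locus had lower values with group means taken out, 0.21 with miR-200a-3p, 0.33 with miR-200b-3p and -0.0052 with miR-429-3p. For miR-141-3p from chromosome 6 the values with the 3 other 3p arms ran from -0.08 to 0.27, and from -0.04 to 0.38 with group means taken out, and both minor members rest on low counts. These correlations are descriptions over libraries that share depth and scaling, and they carry no test. The biological coefficient of variation fitted by edgeR was 0.168 for miR-429-3p, 0.167 for miR-200a-3p and 0.157 for miR-200b-3p, all above the median of 0.135 over tested miRNAs.

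A family profile, the mean of the centred log2 CPM of the 4 tested 3p arms, was used to find the miRNAs that varied most like the family over the 19 libraries. The arms weigh equally, so miR-141-3p, at 8 to 33 counts per library, weighs as much as miR-429-3p. The highest profile value, 0.51, was in young vehicle 8, where miR-141-3p had its highest level (5.79 CPM) and miR-429-3p was at 184.3 CPM. Likeness to this profile is therefore in part likeness to miR-141-3p. Of 504 others, the closest was miR-135b-5p (r = 0.84, rho = 0.82, and r = 0.77 with group means taken out), which had 18.6 CPM in young vehicle, 11.6 in aged vehicle and 14.6 in aged SAHA. Next came miR-351-5p (r = 0.80, and 0.63 with group means taken out) at 327, 186 and 197 CPM in the same groups. The following 4 were miR-467a-5p (0.73), miR-150-5p (0.72), miR-298-5p (0.71) and miR-296-3p (0.70), whose r was 0.45 to 0.53 with group means taken out. The range of r over all 504 was -0.78 to 0.84 with a median of -0.02. The profile itself differs between groups, so miRNAs with the same group pattern are favoured by this choice.

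Marker lists of other epithelia and cell types were read for the same libraries. The choroid plexus and ciliated epithelium list had 9 of 15 rows tested and none called in any comparison; it summed to 2453 to 4017 CPM in young vehicle, 2386 to 3748 in aged vehicle and 2688 to 3811 in aged SAHA. Its most abundant members were miR-204-5p (2956 CPM on average), miR-34c-5p (282) and miR-448-3p (17.4), and 3 of its rows were at 0 in all libraries. Other epithelial miRNAs had 7 of 15 rows tested, with none called for age or SAHA and 1 called higher in aged SAHA against young vehicle (5.3% of all were called higher there), and summed to 2427 to 3161, 2362 to 2593 and 2097 to 2857 CPM. They were led by miR-192-5p (2132 CPM), miR-31-5p (143) and miR-375-3p (135). The sensory miR-183 cluster, led by miR-182-5p at 218 CPM, had 2 of 6 rows tested and none called, with sums of 127 to 498, 193 to 272 and 159 to 318 CPM.

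Median log2 fold changes for age were -0.03 for the choroid plexus list, -0.15 for other epithelial miRNAs and 0.02 for the miR-183 cluster, against -0.37 for the 5 tested miR-200 members. The erythrocyte list, at -0.28, was the nearest to the family by this measure. Its values were negative in 5 of 5 rows, where 50.9% of all tested miRNAs were, and none was called. Its summed level had the highest r with the family profile of the 8 lists (0.62, and 0.41 with group means taken out). The list summed to 2786 to 4050 CPM in young vehicle, 2622 to 3122 in aged vehicle and 2363 to 3172 in aged SAHA, led by miR-486-5p (2845 CPM), miR-451 (91.9) and miR-144-3p (20.2). For the vascular list r was 0.38, and 0.48 with group means taken out, and for the choroid plexus list 0.30 and 0.31. The vascular list had a median of -0.11 for age and 0.25 for SAHA over 9 tested rows, with none called. The neuron-enriched list had a median of -0.08 for SAHA, with 16 of 22 values below 0, where 51.3% of all tested miRNAs were. Of its rows 3 were called lower for SAHA, where 4.32% of all were called in either direction. Its summed level had r of 0.21 with the family profile, and -0.47 with group means taken out. The microglia and myeloid list had a median of 0.32 for age over 7 tested rows. For age 1 of them was called higher, where 2.16% of all tested miRNAs were called in either direction. For SAHA the median of these rows was 0.28, with none called. Of the 7 values 0 were below 0, where 51.3% of all tested miRNAs were. In aged SAHA against young vehicle 3 of the 7 rows were called higher, where 5.3% of all were. The oligodendrocyte list had a median of 0.18 for age over 6 tested rows with none called. In aged SAHA against young vehicle 2 of its rows were called higher, where 5.3% of all tested miRNAs were. With group means taken out r was 0.34 for the microglia and myeloid list and 0.35 for the oligodendrocyte list. The part of blood or of these cell types in the family's levels was not tested.

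**Figure D4:**
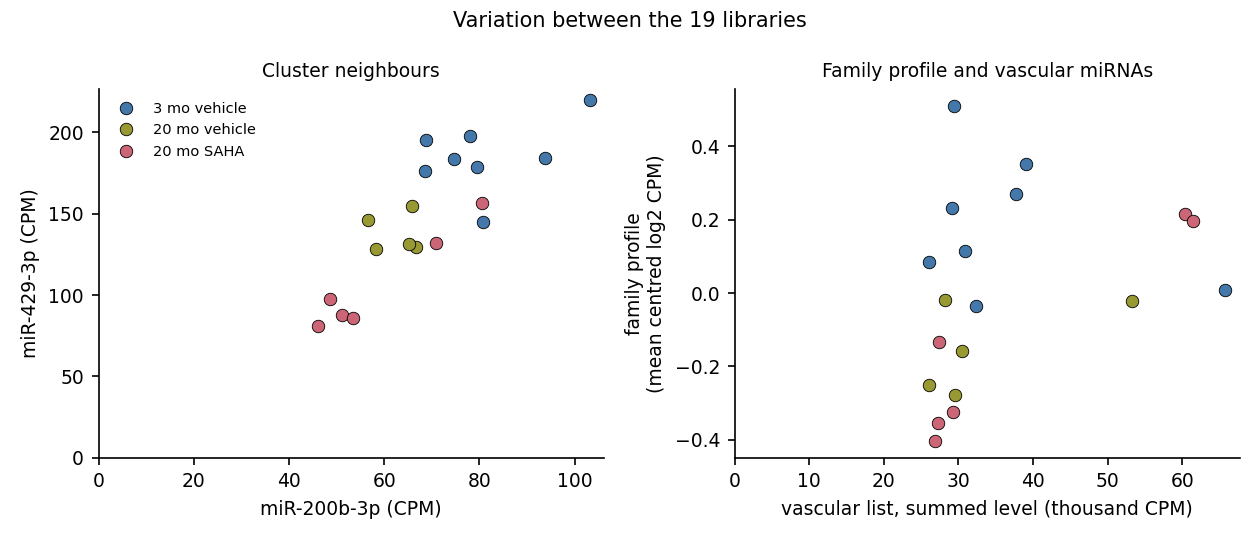
Left, miR-429-3p against miR-200b-3p in CPM for each library; right, the family profile (mean centred log2 CPM of the 4 tested 3p arms) against the summed vascular list. Colours give the group in both panels. Both chromosome 4 members rise together, with 4 SAHA libraries at the lower left, and the SAHA libraries with vascular sums of 60316 and 61420 CPM are those with a family profile above 0.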

How the data were processed

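The authors deposited raw counts, listed by mature miRNA name with 1 value for each library. The submitters' processing notes name CASAVA 1.8.2, cutadapt, STAR, HTSeq and mm10, without order or settings; the sources used here do not give the miRNA annotation release. HTSeq summary lines (4 per file, all 0) were left out. Groups came from the labels, which give no sequencing batch. The members, lists and tests were chosen with earlier results of these data known.

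Low rows were removed by filterByExpr with a count of 10 and a total of 15 as minimums, leaving 509 miRNAs. After TMM scaling, edgeR 4.0.16 (R 4.3.3) fitted all 19 libraries with a term for each group and a robust quasi-likelihood F test. miRNAs were called at an adjusted p under 0.05 (Benjamini-Hochberg, over all tested in a comparison). The SE is the log2 fold change divided by the square root of F, and the interval is 1.96 SE to each side. Log2 CPM used a prior count of 2. All 10 members were named. The 6 most similar miRNAs were ranked by r, and up to 3 per marker list by mean CPM. limma 3.58.1 and DESeq2 1.42.0 served as alternatives. The fit was tested on simulated data. No library was a copy of another (53 pairs within groups, lowest chi-square 24.7 per degree of freedom).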

Additional observations from a re-analysis of the deposited data

Results flagged for a closer look

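Within groups, 66 sets of library values (members, ratios, arm shares and marker lists) were examined for a value far from the others, and 5 stood out. Chance gives about 1 in 20 for values with a normal spread, which counts near 0 do not have. miR-141-3p was at 5.79 CPM in young vehicle 8, against 1.51 to 3.52 CPM in the other 7 libraries of the group. miR-200c-3p was at 0.830 CPM in aged vehicle 3, against 0 in the other 4, and at 1.18 CPM in aged SAHA 6, where the other 5 had 0 to 0.360. These are 4 and 5 counts. With the other 4 aged vehicle libraries at 0, any count in aged vehicle 3 would have been flagged. The vascular list summed to 65734 CPM in young vehicle 4, against 26062 to 39118 in the rest of the group, and to 53317 CPM in aged vehicle 2, against 26096 to 30427.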

How the results depend on the processing

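The number of family members called was 0 for age and 0 for SAHA by edgeR. For age it became 2 with limma-voom, 2 with only the groups compared, 1 without aged SAHA 1 and young vehicle 6 together and 2 without the libraries of high vascular level. For SAHA it became 1 with limma-voom, 1 without aged SAHA 1 and young vehicle 6 together and 1 without the libraries of high vascular level. With each library left out in turn it was 0 to 0 for age, 0 to 1 for SAHA and 2 to 2 for aged SAHA against young vehicle. Library size alone, DESeq2 size factors, no filter and a filter of CPM of 10 in 5 libraries left all 3 counts unchanged. Over all miRNAs, against 11 calls for age and 22 for SAHA by edgeR, DESeq2 made 20 and 46, limma-voom 23 and 46, and edgeR without aged SAHA 1 and young vehicle 6 made 18 and 37. With only the groups compared there were 19 for age. For SAHA, leaving out 1 library gave 11 (without aged SAHA 6) to 33 calls (without aged SAHA 1), with 13 and 14 without aged vehicle 1 and 3.

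Of 332 values of single members under an alternative, 312 kept their direction and side of the threshold, 11 passed it newly and 9 changed sign, none of them called. The sign changes were in miR-200a-5p for SAHA (-0.30 to 0.049 with a library left out) and, in aged SAHA against young vehicle, miR-141-3p (-0.070 to 0.22, and -0.062 without the libraries of high vascular level) and miR-200a-3p (-0.18 to 0.0027). A filter of CPM of 10 removed miR-141-3p and miR-200a-5p.

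With the replicate number of the labels as a replicate block, 0, 0 and 2 members were called for age, SAHA and aged SAHA against young vehicle, as without it. The labels do not say that a number marks a shared animal or day, and same-numbered libraries of different groups did not deviate together (mean r 0.00 over 16 pairs, 4 above 0.1; 3 of 17 libraries correlated best with their own number). The block gave 8, 15 and 58 calls over all miRNAs, against 11, 22 and 71. The arm share test and its alternatives were not run, since no precursor reached 10 counts in both arms. Counts under about 10 per library limit miR-200a-5p, miR-200b-5p, miR-200c-3p and miR-141-5p.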
